A study of Mus musculus with 15 samples.

Results

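The 10 nuclear genes *Tfam*, *Tfb1m*, *Tfb2m*, *Polrmt*, *Polg*, *Polg2*, *Twnk*, *Ssbp1*, *Nrf1* and *Gabpa* were examined in maps of H3K4me3, a histone mark (3 methyl groups on lysine 4 of histone H3) found at promoters in use or held ready for use. They were chosen by name as genes of mitochondrial DNA maintenance and transcription or as regulators of such genes. They are 10 of the 21770 protein-coding genes in the GENCODE M39 annotation of the mouse genome build GRCm39. That annotation holds 78289 genes of all kinds. H3K4me3 ChIP–seq was performed in mBA cells, which the sample labels call primary cells of brown adipose tissue. The study's methods describe lines made from WT and CLPP-KO brown fat with a lentivirus carrying SV40 large T antigen behind the PGK promoter, and then differentiated. The study's reporting summary states that animals of both sexes were pooled for the line and that a biological replicate is an independent culture. Untreated WT cells, WT cells given 500 µM octyl d-2HG (a cell-permeable form of the metabolite 2-hydroxyglutarate) for 72 h (WT + 2HG) and cells lacking the mitochondrial matrix protease CLPP were compared, with 4 ChIP samples and 1 input sample each. The CLPP-KO cultures also received uridine according to the labels. Peaks were called by the authors on the 4 ChIP samples of a condition together, so each condition has a single list (12342 peaks in WT, 14059 after 2HG and 15118 in CLPP-KO), no spread between replicates exists, and no difference between lists could be tested.

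Mitochondrial DNA is a small circular genome held in many copies per cell, and every protein that copies or reads it is encoded in the nucleus. POLG with its accessory subunit POLG2, the helicase Twinkle (*Twnk*) and the single-stranded DNA binding protein SSBP1 form the replication fork. POLRMT transcribes the genome after TFAM has bent the promoter and TFB2M has helped to open it, TFAM also packages the DNA into nucleoids, and TFB1M methylates the small mitochondrial ribosomal RNA. NRF1 and GABP, whose DNA-binding subunit is encoded by *Gabpa*, are nuclear transcription factors known for binding the promoters of such genes, and brown fat is known for its dense content of mitochondria.

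Promoter sequences are shown for *Tfam*, *Tfb2m*, *Polrmt*, *Tfb1m*, *Gabpa* and *Twnk*. The marks of *Gabpa* and *Twnk* also cover a protein-coding gene on the other strand, as does that of *Tfb2m*. The peaks described here overlap these sequences, in whole or in part. Each runs 5′ to 3′ from 250 bases before to 50 after the RefSeq start site. The RefSeq table gives them for build GRCm38.p6, and each was found exactly once in GRCm39, whose coordinates are printed. Capitals mark matches to the letters of the NRF1 motif GCGCATGC, the ETS motif CCGGAAGT (the kind GABP binds) and the YY1 motif AAGATGGC, each searched on both strands.
Tfam (GRCm39 chr10:71073825-71074124, minus strand): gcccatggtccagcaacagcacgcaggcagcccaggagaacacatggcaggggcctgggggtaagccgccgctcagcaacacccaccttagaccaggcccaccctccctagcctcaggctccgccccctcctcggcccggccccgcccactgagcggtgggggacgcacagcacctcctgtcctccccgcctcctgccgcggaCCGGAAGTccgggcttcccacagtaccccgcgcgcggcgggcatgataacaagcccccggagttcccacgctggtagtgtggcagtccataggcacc
Tfb2m (GRCm39 chr1:179373792-179374091, minus strand): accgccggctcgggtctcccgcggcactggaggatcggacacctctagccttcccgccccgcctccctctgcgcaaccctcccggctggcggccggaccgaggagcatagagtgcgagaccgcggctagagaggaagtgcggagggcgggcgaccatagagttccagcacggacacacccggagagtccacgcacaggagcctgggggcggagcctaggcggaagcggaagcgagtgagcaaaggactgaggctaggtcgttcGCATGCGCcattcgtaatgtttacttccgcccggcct
Polrmt (GRCm39 chr10:79582366-79582665, minus strand): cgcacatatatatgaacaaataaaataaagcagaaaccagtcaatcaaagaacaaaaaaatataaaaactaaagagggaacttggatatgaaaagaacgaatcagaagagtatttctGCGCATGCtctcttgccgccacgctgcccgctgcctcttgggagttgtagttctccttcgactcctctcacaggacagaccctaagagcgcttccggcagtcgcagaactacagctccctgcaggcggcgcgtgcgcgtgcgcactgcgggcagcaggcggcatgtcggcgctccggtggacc
Tfb1m (GRCm39 chr17:3607981-3608280, minus strand): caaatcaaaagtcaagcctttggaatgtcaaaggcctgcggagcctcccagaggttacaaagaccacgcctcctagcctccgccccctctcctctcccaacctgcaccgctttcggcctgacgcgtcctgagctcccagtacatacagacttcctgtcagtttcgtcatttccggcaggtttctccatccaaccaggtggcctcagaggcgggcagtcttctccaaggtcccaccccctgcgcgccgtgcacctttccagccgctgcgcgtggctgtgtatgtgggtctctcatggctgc
Gabpa (GRCm39 chr16:84631762-84632061, plus strand): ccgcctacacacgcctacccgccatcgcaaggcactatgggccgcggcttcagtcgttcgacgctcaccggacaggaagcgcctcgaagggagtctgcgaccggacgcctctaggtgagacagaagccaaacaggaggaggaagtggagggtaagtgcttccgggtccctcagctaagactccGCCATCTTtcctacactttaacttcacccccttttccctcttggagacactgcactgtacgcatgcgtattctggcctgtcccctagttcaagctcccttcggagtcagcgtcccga
Twnk (GRCm39 chr19:44994747-44995046, plus strand): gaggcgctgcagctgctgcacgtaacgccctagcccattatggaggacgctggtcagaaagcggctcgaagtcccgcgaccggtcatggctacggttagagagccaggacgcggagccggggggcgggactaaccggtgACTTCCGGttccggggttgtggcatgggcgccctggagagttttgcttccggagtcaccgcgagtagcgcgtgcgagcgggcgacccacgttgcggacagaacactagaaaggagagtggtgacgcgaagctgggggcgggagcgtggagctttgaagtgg

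*Tfam* and *Twnk* hold the ETS letters, *Tfb2m* and *Polrmt* the NRF1 letters, *Gabpa* the YY1 letters, and *Tfb1m* none of the 3. *Tfb2m* and *Polrmt* were the 2 of 10 genes with the NRF1 letters, at position 13 on the reverse strand and at position −133, counted with the start site as 0. Of 32851 RefSeq promoters of this length 2.71% held them, and of the 11113 promoters of protein-coding genes with a peak in all 3 lists 5.28% did. The ETS letters occurred in 3 of 10 genes (*Tfam* at −47, *Polg* at −38 and *Twnk* at −111 on the reverse strand), against 3.89% of all promoters and 8.01% of the marked ones. The YY1 letters occurred in *Gabpa* at −67 on the reverse strand, against 2.75 and 4.32%. A GC box (GGGCGG) was found in 7 of 10, against 35.7% of all and 66.8% of marked promoters, and no match of one of these motifs overlapped a match of another in the 10 promoters. The E-box CACGTG was in 0 of 10 (7.15 and 10.0%) and the CRE motif TGACGTCA in 0 of 10 (1.79 and 3.11%). These counts are of letters in a window that depends on the start site chosen, and none of them was tested. Around the canonical GENCODE start, which for *Tfam* lies 236 bp and for *Tfb2m* 498 bp from the RefSeq start, the NRF1 letters were left in *Polrmt* alone and the ETS letters were in *Gabpa* and *Twnk*.

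In base composition the 10 promoters lay nearer to marked promoters than to promoters at large. Their GC content ranged from 52% in *Polrmt* to 77% in *Nrf1*, with a median of 59.7% against 52.7% for all RefSeq promoters and 62.3% for marked ones. The ratio of observed to expected CpG had a median of 0.957, from 0.586 in *Tfam* to 1.11 in *Ssbp1*. It was 0.384 over all promoters and 0.780 over marked ones.

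Every one of the 10 genes carried H3K4me3 at its promoter in every condition. A promoter peak was any peak overlapping the 2000 bp on either side of an annotated transcript start, and each gene had exactly 1 in each list. Of all protein-coding genes 51.3% had one in WT, 56.4% in WT + 2HG, 58.2% in CLPP-KO and 50.6% in all 3 lists. When only peaks with a summit p of at most 1e-05 were kept, the WT peak of *Polrmt* was lost and 9 of 10 genes remained marked in WT. In such bulk samples, fewer cells carrying the mark and less of the mark per cell cannot be told apart.

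The level of the mark was described by the percentile of a peak's area within its own list, that is, the percentage of the list's peaks whose area (the authors' area under the curve of significance) is no larger. Areas are not scaled between lists, and percentiles place each gene only against the other peaks of that condition. The 10 genes spanned nearly the whole range. Their median was 79.5 in WT (range 11.6 to 96.3), 72.6 in WT + 2HG (21.6 to 95.7) and 82.4 in CLPP-KO (22.1 to 95.7), against 59.3, 60.6 and 62.0 for all protein-coding genes with a promoter peak. By summit p, the authors' measure at a peak's highest point, the medians were 63.2, 69.3 and 78.8, so that WT + 2HG was not below WT on that measure. The genes did not form one level. *Gabpa*, *Twnk*, *Nrf1*, *Polg*, *Tfb2m* and *Tfam* lay above 60 in every list, *Polg2* between 42.9 and 56.6, and *Ssbp1*, *Tfb1m* and *Polrmt* below 50 in every list.

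**Figure D1:**
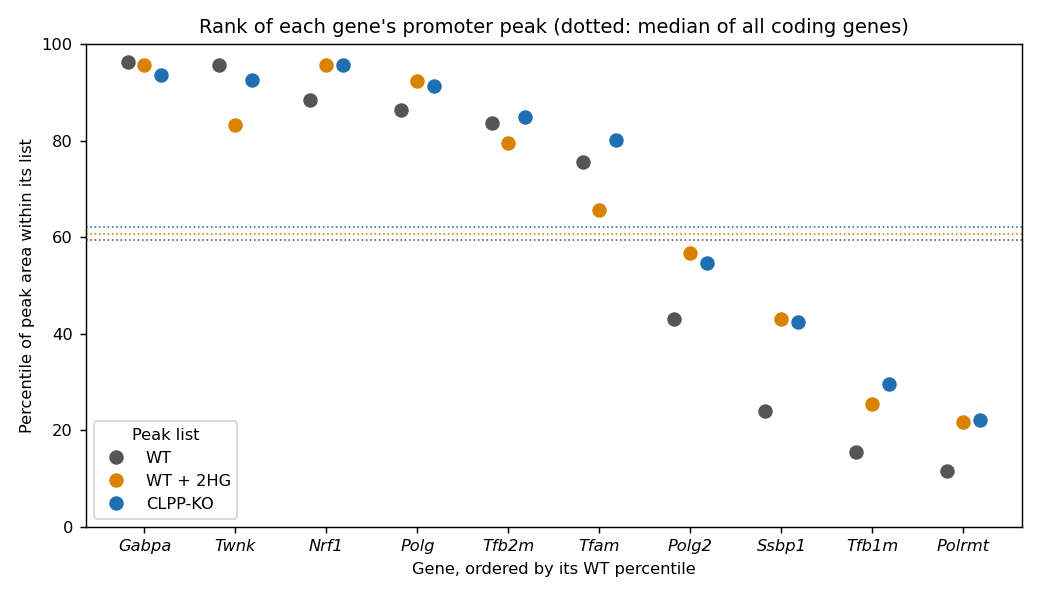
Percentile of the area of each gene's promoter peak within its list (y axis, 0 to 100) for the 10 genes (x axis, ordered by WT). Points are single values for the WT, WT + 2HG and CLPP-KO lists without replicate error, and dotted lines are the medians of all protein-coding genes with a promoter peak (59.3, 60.6 and 62.0). *Tfb2m*, *Tfam*, *Polg2*, *Ssbp1*, *Tfb1m* and *Polrmt* hold places 5 to 10 in this order in all 3 lists.

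By area percentile, the order of the genes was largely shared by the lists. Places 5 to 10 were taken by *Tfb2m*, *Tfam*, *Polg2*, *Ssbp1*, *Tfb1m* and *Polrmt* in WT, after 2HG and in CLPP-KO. Places 1 to 4 were *Gabpa*, *Twnk*, *Nrf1* and *Polg* in WT, *Nrf1*, *Gabpa*, *Polg* and *Twnk* in WT + 2HG, and *Nrf1*, *Gabpa*, *Twnk* and *Polg* in CLPP-KO. By summit p the upper places differed more between lists. In WT, WT + 2HG and CLPP-KO *Tfam* held places 2, 7 and 1 on that measure, and *Polg* places 6, 1 and 4. *Ssbp1*, *Tfb1m* and *Polrmt* kept places 8 to 10. Without replicate lists, whether neighbours in either order differ beyond their spread cannot be said.

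The nuclear regulators were among the most strongly marked. *Nrf1* (ENSMUSG00000058440.16, chromosome 6, 30047892 to 30153462, plus strand) had its peak at 30047483 to 30049113 in WT, a width of 1631 bp, and the summit lay in intron 1 in all 3 lists. Its area percentile was 88.4 in WT, 95.7 after 2HG and 95.7 in CLPP-KO, the lowest value being that of WT. The 3 peaks nearly coincided, with 95.3% of their joint span common to all, the highest share of the 10 genes, and each held the start of the lncRNA gene 1700080G18Rik, 86 bp from that of *Nrf1* on the opposite strand. The percentile of the summit p, which follows the height of a peak more than its breadth, was 63.3 in WT, 89.6 after 2HG and 87.3 in CLPP-KO. The peak of *Nrf1* was therefore broad for its height in WT, where it stood at percentile 92.5 by width.

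*Gabpa* (ENSMUSG00000008976.18, chromosome 16, 84631140 to 84660672, plus strand) had the widest peak of the 10 in every list, 1977 bp in WT, 2249 bp after 2HG and 2081 bp in CLPP-KO. Its percentile was 96.3, 95.7 and 93.6 in that order, the highest or second highest of the 10 genes in every list. The WT peak ran from 84631151 to 84633127 and held 42 start sites of *Atp5pf*, which encodes a subunit of the mitochondrial ATP synthase and is read from the opposite strand. The canonical start of *Atp5pf* lies 980 bp downstream of that of *Gabpa*, so the 5′ ends overlap and the mark cannot be divided between them.

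Among the genes of mitochondrial transcription and *Tfb1m*, the gene for RNA methylation, the mark ranged from strong to near the floor of the lists. *Tfb2m* and *Tfam* lay above the median of protein-coding genes in every list, and *Tfb1m* and *Polrmt* were the lowest of the 10 in every list. *Tfb2m* (ENSMUSG00000026492.13, chromosome 1, 179355610 to 179374548, minus strand) had a peak of 1412 bp in WT at 179373296 to 179374707, with the summit in the noncoding part of exon 1. Its percentile was 83.6 in WT, 79.5 after 2HG and 84.9 in CLPP-KO. The peak also held 11 starts of *Cnst*, a protein-coding gene on the opposite strand whose canonical start is 436 bp away. The mark and its differences between lists therefore cannot be ascribed to *Tfb2m* alone.

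*Tfam* (ENSMUSG00000003923.16, chromosome 10, 71061287 to 71074110, minus strand) had a narrow but high peak in WT. It spanned 801 bp, from 71073154 to 71073954, at percentile 47.4 of all WT widths but at 92.8 by summit p and 75.5 by area. In WT + 2HG the area percentile was 65.6 and that of the summit p 55.9, and in CLPP-KO they were 80.0 and 92.2. WT + 2HG was thus the list with the lowest rank of *Tfam* on both measures, while the peak was wider there (959 bp) and in CLPP-KO (1045 bp) than in WT. The WT peak stopped 156 bp inside the gene, downstream of the canonical start, and the other peaks reached 57 bp (WT + 2HG) and 102 bp (CLPP-KO) beyond that start. Of the 300 bases of *Tfam* promoter printed above, 130 lay in the WT peak, the ETS letters among them, and 300 in each of the others.

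*Polrmt* (ENSMUSG00000020329.14, chromosome 10, 79571957 to 79582420, minus strand) had the smallest peak of the 10 by area in every list. Its width was 444 bp in WT (79581999 to 79582442), 476 bp after 2HG and 428 bp in CLPP-KO, and its percentile 11.6, 21.6 and 22.1. The summit −log10 p of 4.64 in WT compares with 21.8 for *Twnk* in the same list. The peak began within 23 bp of the canonical start in each list and lay almost wholly downstream of it, so that 72 to 78 of the 300 printed bases were covered, and the match to the NRF1 letters at −133 was outside all 3 peaks.

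*Tfb1m* (ENSMUSG00000036983.9, chromosome 17, 3563847 to 3608190, minus strand) was next to lowest, at percentile 15.6 in WT, 25.5 after 2HG and 29.6 in CLPP-KO. Its peak measured 473, 569 and 709 bp and its summit was in intron 1 in each list. The WT peak (3607525 to 3607997) ended 69 bp short of the canonical start and held 0 of the 10 annotated starts, whereas the WT + 2HG and CLPP-KO peaks each held 9. It held 4 starts of the lncRNA gene 1700102H20Rik on the opposite strand in all 3 lists.

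The replication genes were likewise split between high and low. *Polg* and *Twnk* lay above 80 in every list and their partners *Polg2* and *Ssbp1* below the median of protein-coding genes in every list. *Polg* (ENSMUSG00000039176.19, chromosome 7, 79095974 to 79116110, minus strand) had the second widest peak, 1792 bp in WT (79114215 to 79116006), 2035 bp after 2HG and 1735 bp in CLPP-KO. Its area percentile was 86.3, 92.4 and 91.3, and its summit p percentile 63.1, 95.6 and 86.9, so WT was lowest on both. The peak lay wholly inside the gene, with gaps of 104, 6 and 62 bp to the canonical start, and its summit was in intron 1.

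*Polg2* (ENSMUSG00000020718.14, chromosome 11, 106658823 to 106670384, minus strand) had peaks of similar width in the lists, 662 bp in WT (106669710 to 106670371), 696 bp after 2HG and 708 bp in CLPP-KO. Its area percentile was 42.9, 56.6 and 54.7. The summits lay within 29 bp of each other, the closest of the 10 genes, in the coding part of exon 1.

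*Twnk* (ENSMUSG00000025209.7, chromosome 19, 44994102 to 45001204, plus strand) stood at percentile 95.7 in WT, 83.3 after 2HG and 92.6 in CLPP-KO. Its width was 1264 bp in WT (44994013 to 44995276), 1314 bp after 2HG and 1526 bp in CLPP-KO. It was the single gene of the 10 whose summits lay upstream of its canonical start, at −397, −236 and −356 bp. *Mrpl43*, a protein of the large mitochondrial ribosomal subunit, starts 56 bp upstream on the opposite strand, and 4 of its starts were in each peak. Of the WT peak, 924 bp lay on the *Mrpl43* side and 339 bp on the side of *Twnk*, so this mark cannot be ascribed to *Twnk* alone.

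*Ssbp1* (ENSMUSG00000029911.16, chromosome 6, 40448286 to 40524298, plus strand) had the peaks that differed most in extent, 487 bp in WT (40448349 to 40448835), 927 bp after 2HG and 684 bp in CLPP-KO, with 51.9% of their joint span common to all 3. Both edges differed. The upstream edge lay 33 bp before the canonical start in WT, 361 bp after 2HG and 106 bp in CLPP-KO, and the downstream edge lay 453, 565 and 577 bp past it. The percentile was 24.1, 43.1 and 42.4. The canonical start of the lncRNA gene Gm67574, 51 bp upstream on the opposite strand, lay inside the WT + 2HG and CLPP-KO peaks and outside the WT peak.

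**Figure D2:**
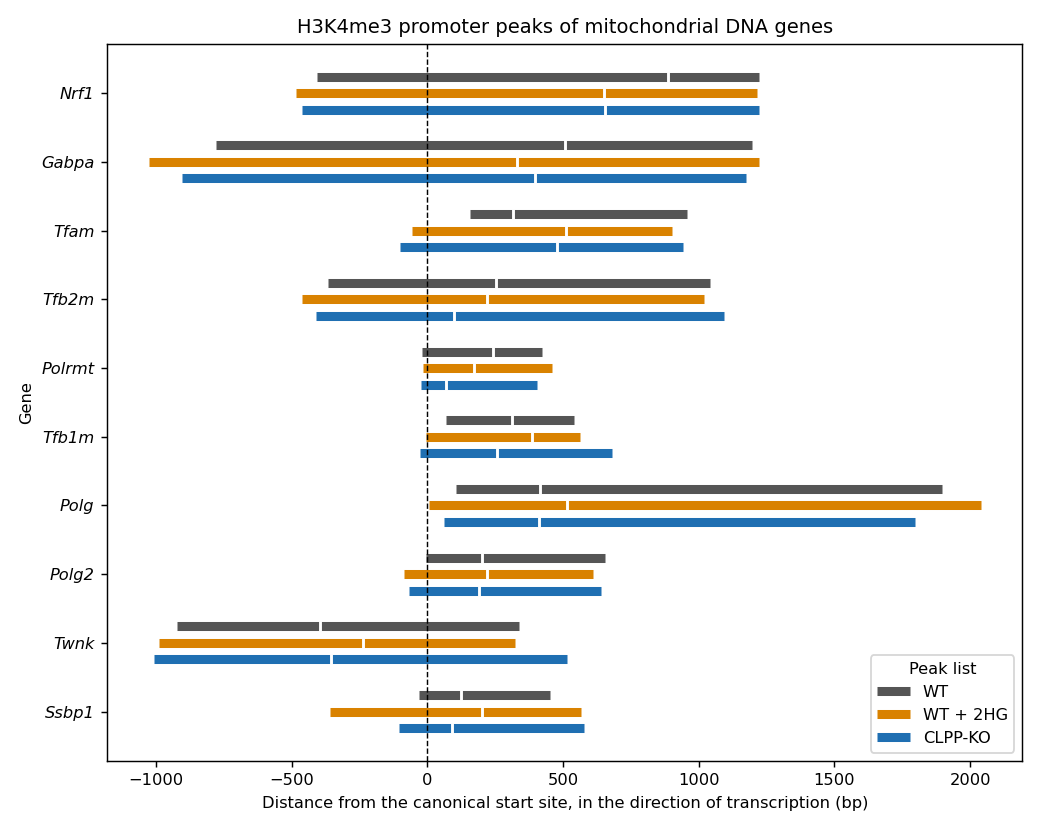
Extent of the promoter peak of each gene in the WT, WT + 2HG and CLPP-KO lists (bars) and its summit (white tick), as distance in bp from the canonical start site (dashed line), positive in the direction of transcription. Most peaks extend further downstream than upstream, *Twnk* is the exception with 924 bp upstream in WT, and the WT peaks of *Tfam*, *Tfb1m* and *Polg* begin 156, 69 and 104 bp inside the gene.

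CLPP-KO was compared with WT to ask whether the knockout cultures, which also received uridine, carried a different mark at these promoters. Loss of the protease, the uridine and any other difference between the WT and CLPP-KO lines cannot be told apart in this design. The peak was wider in CLPP-KO for 8 of 10 genes, and narrower for *Polg* (1735 against 1792 bp) and *Polrmt* (428 against 444 bp). Over the 11084 protein-coding genes with a promoter peak in both lists the share that was wider was 71.5%. The median difference was 98 bp for the 10 genes and 88 bp for all. The largest was in *Twnk* (262 bp), followed by *Tfam* (244 bp) and *Tfb1m* (236 bp). Counting only differences of at least 100 bp, 5 of 10 were wider, against 47.9% of all protein-coding genes, and 0 narrower.

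The area percentile was higher in CLPP-KO than in WT for 8 of 10 genes, against 69.8% of all protein-coding genes, but for only 3 of 10 when percentiles were taken among regions present in all 3 lists (43.3% of all genes) and for 5 of 10 with lists of equal size (47.3%). The count of genes that were higher thus depended on which peaks set the scale. The median difference was 6.14 percentile points for the 10 genes and 5.27 for all protein-coding genes. The genes lower in CLPP-KO were *Twnk* (−3.18 points) and *Gabpa* (−2.66 points), and their differences were negative under all 6 ways of computing the percentile (by area, by summit p, among regions of all 3 lists, with lists of equal size, on chromosomes 1 to 19, and by summed area among protein-coding genes). *Nrf1* (7.33 points), *Polg* (4.96 points) and *Ssbp1* (18.3 points) were positive under all 6. For *Tfam*, *Tfb2m*, *Polrmt*, *Tfb1m* and *Polg2* the sign depended on how the percentile was taken.

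On the lists as deposited, the low genes had the larger differences, and so did low genes throughout the lists. The grouping and the difference both use the WT percentile, and a low gene has more room to rise than to fall. Part of this pattern is therefore set by the measure, and how much was not tested. Of protein-coding genes at or below percentile 50 in WT, 87.5% were higher in CLPP-KO, against 58.5% of those above it, and the medians were 14.1 and 1.44 points. *Ssbp1* (18.3), *Tfb1m* (14.0), *Polg2* (11.7) and *Polrmt* (10.5), all below 50 in WT, had the 4 largest differences of the 10. With lists of equal size their differences were 5.40, −1.79, 1.53 and −7.07 points in that order. Read against all protein-coding genes on the lists as deposited, 81.6% had a difference no larger than that of *Ssbp1* and 64.9% one no larger than that of *Polrmt*.

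WT + 2HG was compared with WT to ask whether treatment with octyl d-2HG goes with a different mark at these promoters. The study's methods list DMSO with octyl d-2HG, and the WT samples are labelled untreated. The metabolite, its octyl group and DMSO therefore cannot be told apart. Both comparisons use the same WT list and are given side by side without a test of their likeness. All 10 genes had a wider peak in WT + 2HG than in WT, against 71.8% of the 11057 protein-coding genes with a peak in both lists. Most of these differences were small. The median was 84 bp (96 bp over all genes), the largest were 440 bp in *Ssbp1* and 272 bp in *Gabpa*, and 4 of 10 reached 100 bp, against 49.1% of all protein-coding genes.

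The area percentile was higher in WT + 2HG for 6 of 10 genes, against 64.4% of all protein-coding genes, and for 4 of 10 both among regions present in all 3 lists (44.7% of all genes) and with lists of equal size (49.7%). *Nrf1* (7.33 points), *Polg* (6.08), *Polg2* (13.7) and *Ssbp1* (19.1) were higher under all 6 ways of computing the percentile. *Twnk* (−12.5 points), *Tfam* (−9.83), *Tfb2m* (−4.09) and *Gabpa* (−0.571) were lower under all 6, and *Polrmt* (9.99) and *Tfb1m* (9.94) changed sign among them. *Twnk* and *Tfam* stood toward the low end of all genes, as 6.82% of protein-coding genes had a difference as low as or lower than that of *Twnk* and 9.87% one as low as or lower than that of *Tfam*. By summit p the difference of *Tfam* was −36.9 points, with 0.895% of protein-coding genes as low or lower, and that of *Twnk* was −17.3 points, with 9.44%. *Polg2* and *Polg* were at the other end by summit p, at 36.0 and 32.5 points, with 96.2 and 93.9% of genes no higher.

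**Figure D3:**
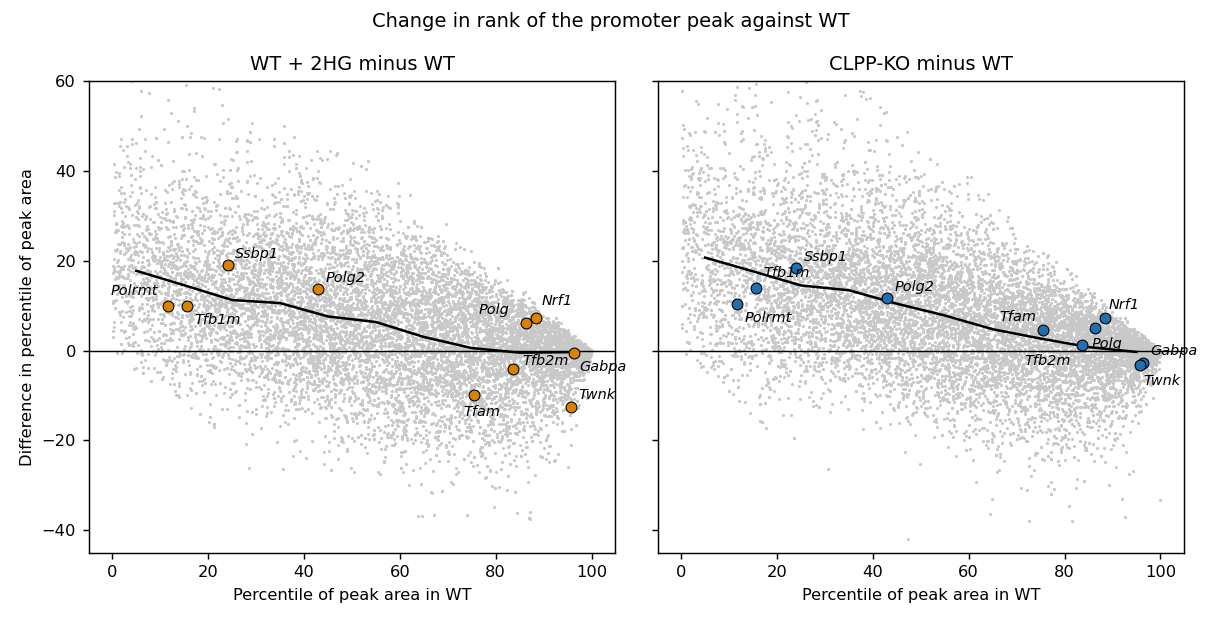
Difference in area percentile from WT (y axis, percentile points) against the WT percentile (x axis) for WT + 2HG and CLPP-KO. Coloured points are the 10 genes, grey points all protein-coding genes with a promoter peak in both lists (11057 and 11084, of which 5 and 29 lie outside the axis), and the black line is the grey points' median in steps of the x axis. *Polg2*, *Ssbp1*, *Tfb1m* and *Polrmt*, below 50 in WT, lie above 0 in both panels, *Tfam* and *Twnk* lie below the line in WT + 2HG, and the signs of *Polrmt* and *Tfb1m* after 2HG and of these, *Tfam*, *Tfb2m* and *Polg2* in CLPP-KO turn on other percentile scales.

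CLPP-KO and WT + 2HG, compared directly, differed in width in both directions, which the median difference does not show. The peak was wider in CLPP-KO for 5 of 10 genes, against 50.4% of 12054 protein-coding genes, and the median difference was −1 bp (2 bp over all genes). *Polg* (−300 bp), *Ssbp1* (−243 bp) and *Gabpa* (−168 bp) were narrower in CLPP-KO by at least 100 bp, and *Twnk* (212 bp) and *Tfb1m* (140 bp) were wider by as much. Of all protein-coding genes 28.2% were wider in CLPP-KO by at least 100 bp. The share that was narrower by as much was not computed. The area percentile was higher in CLPP-KO for 6 of 10, against 59.3% of all, and for 3 of 10 with lists of equal size (48.2% of all genes). It was higher for 4 of 10 among regions of all 3 lists (48.9%), on chromosomes 1 to 19 (57.1%) and by summed area among protein-coding genes (54.7%). *Tfam* had the largest difference of the 10, 14.4 points by area, with 89.7% of protein-coding genes no higher, and 36.3 points by summit p, with 99.2% no higher. *Twnk* was 9.28 and *Tfb2m* 5.34 points higher in CLPP-KO, and all 3 of these genes were higher there under all 6 ways of computing the percentile.

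*Tfam*, *Twnk* and *Tfb2m* were thus lowest in WT + 2HG, *Gabpa* was lowest in CLPP-KO, and *Nrf1*, *Polg*, *Polg2*, *Ssbp1*, *Polrmt* and *Tfb1m* were lowest in WT on the lists as deposited. With lists of equal size, and among regions of all 3 lists, *Polrmt* and *Tfb1m* were instead highest in WT, and among the latter *Polg2* was lowest in CLPP-KO.

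The 10 genes were set beside 51 further genes of mitochondrial DNA replication, transcription and RNA processing, nucleotide supply, base repair and regulation of mitochondrial biogenesis. Of these, 42 had a promoter peak in all 3 lists, 4 in some and 5 in none, where the 10 genes were marked throughout. Of all protein-coding genes 50.6% had one in all 3 lists. Their median percentile was 58.4 in WT, 55.4 after 2HG and 57.8 in CLPP-KO, close to that of all protein-coding genes and below the medians of the 10 genes. Peaks were wider in CLPP-KO than in WT in 35 of 42, against 71.5% of all protein-coding genes. They were wider in WT + 2HG than in WT in 30 of 42, against 71.8%. The percentile was higher in 28 of 42 in each comparison, against 69.8% of all protein-coding genes for CLPP-KO and 64.4% for WT + 2HG.

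Other regulators of biogenesis ranged from weakly marked to the top of the lists, with medians of 91.3, 92.8 and 96.5 in WT, WT + 2HG and CLPP-KO over the 7 of 8 with a peak. *Yy1*, a zinc finger factor, was highest of the 51 in WT at 99.8, followed by *Nfe2l2*, which encodes the oxidative stress factor NRF2, at 95.7. *Gabpb2*, which encodes a partner of GABPA, was at 30.9, 50.7 and 49.1. *Gabpb1*, which encodes another such partner, was at 91.3, 92.8 and 96.5. *Esrra*, a nuclear receptor gene, was at 49.7, 62.6 and 49.3. *Gabpb2* and *Esrra* lay below *Nrf1* and *Gabpa* in every list. *Ppargc1a*, which encodes the coactivator PGC-1α of NRF1 and GABP, had no promoter peak in any list. Further replication and nucleoid genes were lower than *Polg* and *Twnk*, with medians of 43.1, 49.3 and 51.5 over the 11, 12 and 12 with a peak. The lowest in WT were *Fen1* (9.65), a flap nuclease that also serves nuclear DNA, and *Mterf1a* (11.7), a transcription terminator, both below *Tfb1m*.

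The genes with a peak in some lists were all unmarked in WT, the shortest list. Of all protein-coding genes 51.3% had a promoter peak in WT, against 56.4% in WT + 2HG and 58.2% in CLPP-KO. *Top3a*, a topoisomerase that separates daughter mitochondrial genomes, was at percentile 22.9 after 2HG and 27.3 in CLPP-KO. *Mutyh*, a DNA glycosylase, was at 15.6 and 6.67, and *Tymp* (thymidine phosphorylase, 19.6) and *Ogg1* (8-oxoguanine glycosylase, 3.72) had a peak in CLPP-KO alone. Besides *Ppargc1a*, the genes with none were *Mterf2*, *Hsd17b10*, *Prorp* and *Mpv17*. The 78 mitochondrial ribosomal protein genes had medians of 47.8, 50.4 and 48.9 over the 70, 71 and 72 with a peak, and *Mrpl43*, at the peak it shares with *Twnk*, was far above them.

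**Figure D4:**
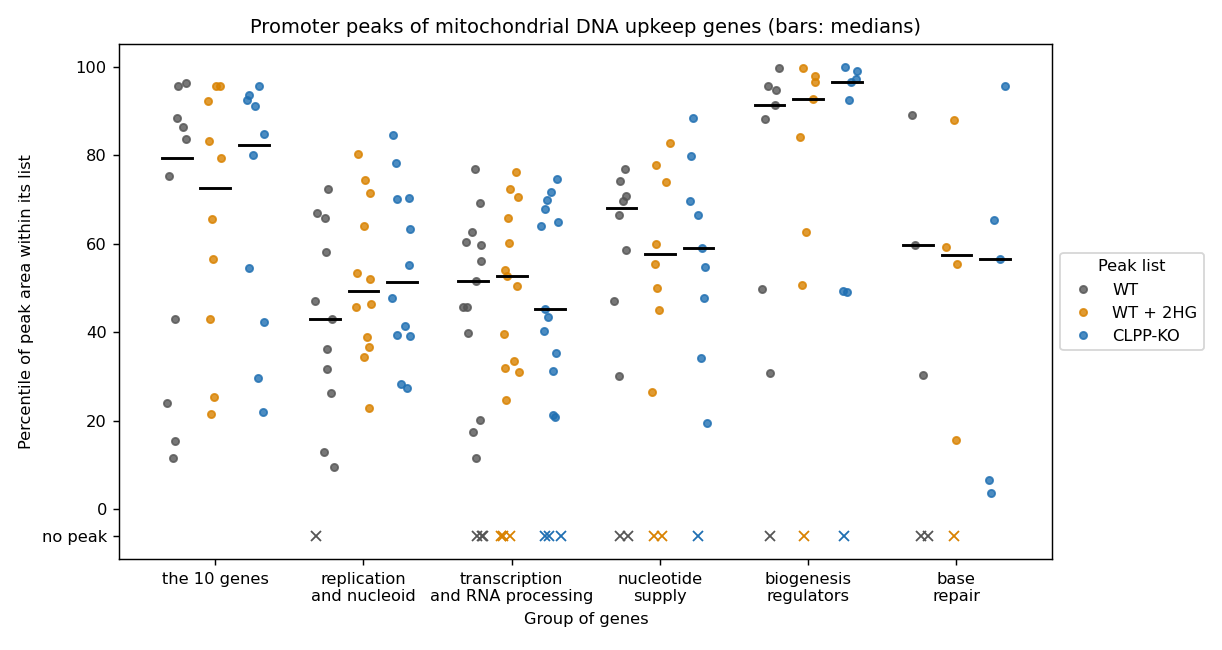
Percentile of peak area within its list (y axis) for the 10 genes and for 51 further genes in 5 groups (x axis), with 1 point per gene and list. Black bars are medians of the genes with a peak and crosses are genes without one. The 10 genes' medians (79.5, 72.6 and 82.4) lie above those of replication and nucleoid genes (43.1, 49.3 and 51.5) and below those of biogenesis regulators (91.3, 92.8 and 96.5).

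The labelled cell type was checked on markers. Of 7 adipocyte genes 3 had a promoter peak in WT and 5 in each of the other lists, *Fabp4* and *Adipoq* having none. Of 5 brown fat genes 1 (*Prdm16*) was marked in WT and 2 in each of the others, *Ucp1*, *Ppargc1a* and *Dio2* having none. Of 6 leukocyte, endothelial and muscle genes, *Myod1* in CLPP-KO was the single one marked. The part of these differences in the values of the 10 genes was not tested.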

How the data were processed

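H3K4me3 ChIP–seq was done on 12 ChIP samples (4 per condition), with 3 inputs. Per the labels and the study's methods, the authors trimmed reads with fastp 0.23.4, mapped them with BWA 0.7.17 to GRCm39 and called peaks with Genrich 0.6.1 on the replicates of a condition together. The submitters' processing notes also name deepTools 3.5.4. The deposited lists give for each peak a signal (the area under the curve), a summit −log10 p, a q field of −1 throughout, and no read counts. The study's reporting summary states 1 nominal sequencing depth, which the lists cannot be checked against, and intervals that need counts are not given. The stated Genrich call leaves out chromosomes X, Y and M and sets an area threshold far below the smallest area found, so the deposited lists, which hold peaks on X and Y and in CLPP-KO on M, do not match it and were used as they are. The smallest area in each list was near 200.0.

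Promoter windows were 2000 bp either side of every start in GENCODE M39, 1 bp of overlap was enough, and a gene was described by its promoter peak of largest area. Percentiles were computed within a list. Shares over all protein-coding genes are given beside the counts of the 10 genes in the report, and no test was made. Motifs were searched in 300-base RefSeq promoters. The genes named besides the 10 were pathway genes marked in some or no lists, the 2 highest and 2 lowest in WT, and genes starting inside a peak of the 10. The rule covered coding genes there. The 3 lncRNA genes, *Gabpb1*, *Gabpb2*, *Esrra* and *Ppargc1b* were added after their values were seen. The members and lists were chosen with earlier results of these data known. The code was tested on simulated data, where 200 of 200 planted genes and 100 of 100 planted motifs were recovered. Alternatives changed the windows, starts, threshold, list size, percentile and motif letters. Tables were handled in pandas 2.3.3 and numpy 2.4.6 under Python 3.11.15, and plots were drawn in matplotlib 3.10.9.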

Additional observations from a re-analysis of the deposited data

Results flagged for a closer look

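Mitochondrial DNA itself, which the proteins of several of the 10 genes copy or read, carries no histones. The CLPP-KO list nevertheless held 11 peaks on the mitochondrial chromosome, and the WT and WT + 2HG lists 0. The Genrich call stated by the study leaves this chromosome out, so the stated settings would not have given these peaks, and the list as deposited holds them. They came to attention as signal outside the promoters compared above. The peaks lay between positions 87 and 15963 and covered 4221 bp, with a median width of 376.0 bp (147 to 897 bp). Their area percentiles ran from 1.69 to 39.6 with a median of 10.7, so most were weaker than the CLPP-KO peak of *Polrmt*, at 22.1. The widest, at 1899 to 2795, overlapped *mt-Rnr2*, the large mitochondrial ribosomal RNA gene, and the start of *mt-Nd1*. *mt-Co1*, a subunit of cytochrome oxidase, was overlapped by peaks at 4964 to 5446, 5603 to 6160 and 6272 to 6648. The number of mitochondrial reads in the ChIP and input samples was not analysed here, and its part in these peaks was not tested. Without chromosomes other than 1 to 19, the counts of the 10 genes at a higher percentile than in WT were 8 in CLPP-KO (68.6% of all protein-coding genes) and 6 in WT + 2HG (64.7%), the same as with all peaks, and 4 rather than 6 were higher in CLPP-KO than in WT + 2HG (57.1%).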

How the results depend on the processing

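The count of 10 genes with a promoter peak in each list held with windows of 1000 or 3000 bp, canonical or protein-coding starts, the summit inside the window and lists of equal size, and a summit p of at most 1e-05 left 9 in WT and in all 3 lists. Counts of wider peaks were the same with these windows, with canonical starts and with summed widths. Differences of at least 100 bp left 5 genes wider in CLPP-KO than in WT, 4 in WT + 2HG than in WT and 2 in CLPP-KO than in WT + 2HG. The shares of all protein-coding genes were 47.9, 49.1 and 28.2% in that order. Genes at a higher percentile in CLPP-KO than in WT numbered 3 among regions of all 3 lists (43.3% of all protein-coding genes) and 5 with lists of equal size (47.3%). In CLPP-KO than in WT + 2HG they numbered 3 with lists of equal size (48.2%). By summit p the medians of the 10 genes were 63.2 in WT, 69.3 after 2HG and 78.8 in CLPP-KO, which puts WT + 2HG above WT, and among promoter peaks of protein-coding genes they were 78.3, 70.0 and 80.2. The cause was not tested. Looser letters gave the NRF1 motif in 4 genes (GCGCNTGC, in 9.61% of all promoters and 19.3% of marked ones) and the ETS motif in 8 (CCGGAA, in 14.9 and 26.9%). The window around the canonical start, an alternative chosen after seeing the data, gave the NRF1 motif in 1. No paired analysis was possible because peak calling joined the 4 replicates of each condition, and no replicate could be left out for that reason.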
